A study of Rattus norvegicus with 35 samples.

Results

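All 3 triazole fungicides fed at 500 ppm were set together against undosed animals, to find liver transcripts that moved alike under each of them. The 500 ppm group was chosen from the sample titles as every array with values at exactly that dose, 13 in all (5 myclobutanil, 3 propiconazole and 5 triadimefon), and the reference was the 7 controls at 0 ppm. These 20 arrays are part of 32 with values among the 35 that the series lists, and each was read at 31042 probe sets, the array features that stand for a transcript, with the Affymetrix control features left out. The rats were Wistar Han IGS, and dosing through the feed began on day 6 of gestation and lasted until postnatal day 92, the age at which RNA was taken. The design text calls the animals of a group biological replicates. No source used here gives their sex or litters, so litter mates could share a group. The group sizes limit the precision, most of all for propiconazole, of which 2 arrays at 500 ppm held no values.

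Triazoles act on fungi by blocking a lanosterol demethylase, the counterpart of Cyp51 in mammals, which makes a precursor of cholesterol. In rodent liver many of them also activate the nuclear receptors CAR (Nr1i3) and PXR (Nr1i2), which pair with RXR and switch on genes of drug metabolism: cytochromes P450 that oxidise foreign compounds, transferases that conjugate them, and pumps that export them. Cyp2b genes are the classic CAR targets and Cyp3a genes the classic PXR targets. The dioxin receptor Ahr controls a separate set led by Cyp1a1. Myclobutanil is a nitrile, propiconazole a cyclic ketal and triadimefon a ketone, and all of them carry a triazole ring.

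The values are the submitters' deposited scores, 1 per probe set and array, centred near 0 in each array and of unstated scale. Affymetrix spike-in RNAs of known concentration (1.5, 5, 25 and 100 pM) showed a median rise of 0.549 score units per doubling of concentration, with 0.469 on the flattest array and 0.908 on the steepest of all 32, which was myclobutanil 500 ppm replicate 1. A difference is therefore given in score units and not as a fold change, and it is always 500 ppm minus control. The titles name liver, while the extraction text names testis. The mean score of 15 hepatocyte markers ran from 3.76 to 6.19 at 500 ppm and from 3.85 to 5.01 in controls, and that of 16 testis markers from -0.0819 to 0.271 and from -0.126 to 0.0982, in the same order.

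The 3′–5′ difference, used here as a measure of RNA quality, differed between the groups compared. For GAPDH and β-actin the score of the 3′ probe set was read less that of the 5′ probe set, a difference that grows as RNA breaks down. It is also wider where the scores of an array are spread more, and the part of each was not tested. The 3′–5′ difference averaged 0.826 ± 0.592 over the 13 arrays at 500 ppm (SD) and 1.30 ± 0.595 over the 7 controls. By compound it was 1.21 ± 0.849 for myclobutanil (n = 5), 0.694 ± 0.139 for propiconazole (n = 3) and 0.518 ± 0.0479 for triadimefon (n = 5). The GAPDH difference alone was above 0.9 on 2 arrays at 500 ppm (myclobutanil replicates 1 and 5) and on 4 controls (replicates 4 to 7). Outside the groups compared it was above 0.9 on 3 arrays at 1800 ppm triadimefon. Fits without the arrays of high GAPDH 3′–5′ difference left those out too. Those fits kept controls 1 to 3 as the only controls. Control 2, kept by its GAPDH value, had a 3′–5′ difference of 1.11 when averaged with β-actin. Among the arrays kept at 500 ppm the highest such average was 0.842, in propiconazole replicate 2. Controls 5 to 7 also have animal numbers above 3000, while all 13 animals at 500 ppm have lower ones. The part of either in the results below was not tested. Of 64 genes followed through the alternatives, 27 had a difference that turned or moved by over 1.5 times without the arrays of high GAPDH 3′–5′ difference, and 20 among animals numbered below 3000. For those in the paragraphs below, a value without such arrays stands beside the main one.

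One probe set of the 31042 passed the test of the pooled contrast (0.00322%, limma with Benjamini-Hochberg adjustment and an adjusted p threshold of 0.05), and it was higher under each compound. It is annotated to both Cyp2b1 and Cyp2b2, phenobarbital-inducible cytochromes P450 whose transcripts it does not tell apart, and is called Cyp2b here. Both genes lie on the plus strand of chromosome 1 of GRCr8, Cyp2b1 at chr1:90646098-90669762 and Cyp2b2 at chr1:90722243-90736272. The 212 bases just before each gene's annotated start, from RefSeq, are shown because they are the promoters of the genes this probe set reads. They match at 204 of 212 positions (96.2%), and the 8 bases that differ are in capitals. The Cyp2b1 stretch is chr1:90645886-90646097 and that of Cyp2b2 chr1:90722031-90722242, both plus strand, 5′ to 3′.
Cyp2b1: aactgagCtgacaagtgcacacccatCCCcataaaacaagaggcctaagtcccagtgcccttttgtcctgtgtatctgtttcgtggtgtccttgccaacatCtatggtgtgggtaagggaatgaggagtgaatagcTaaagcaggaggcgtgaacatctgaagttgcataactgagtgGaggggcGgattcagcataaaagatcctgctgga
Cyp2b2: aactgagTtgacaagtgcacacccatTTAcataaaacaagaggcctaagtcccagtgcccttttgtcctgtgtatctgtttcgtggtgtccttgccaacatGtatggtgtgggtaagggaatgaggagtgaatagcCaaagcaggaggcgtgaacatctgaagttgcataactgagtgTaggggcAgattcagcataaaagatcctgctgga

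Cyp2b scored 5.21, 3.46, 3.43, 3.37 and 4.34 in the 5 myclobutanil livers. It scored 3.70, 3.71 and 4.57 in the 3 propiconazole livers and 4.45, 3.75, 4.12, 3.77 and 3.93 in the 5 triadimefon livers, against 2.60, 2.14, 2.69, 3.04, 2.62, 2.33 and 2.16 in the 7 controls. All 13 treated livers lay above all 7 controls, with a gap of 0.330 between the lowest treated and the highest control liver. No other probe set had all 13 arrays above the controls, so the share that did was 0.00322% of those tested. The means were 3.98 ± 0.534 at 500 ppm and 2.51 ± 0.320 in controls (SD, n = 13 and 7). The pooled difference was 1.47 ± 0.231 (SE, 95% interval 0.998 to 1.95, limma adjusted p = 0.0250), the largest difference above 0 of any probe set, the next above 0 being 0.963. In whole liver tissue, more RNA per cell and more of the cells that express a gene cannot be told apart.

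**Figure D1:**
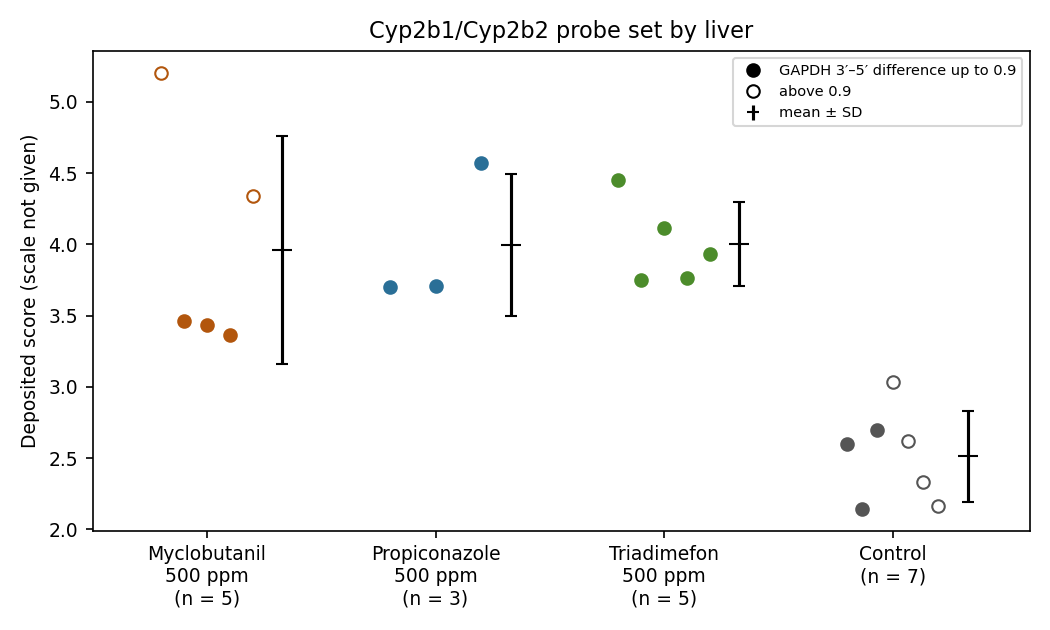
Deposited score of the Cyp2b probe set (vertical axis) in each liver, by group, with open circles for arrays whose GAPDH 3′–5′ difference was above 0.9 and bars for mean ± SD. The 13 livers at 500 ppm sit between 3.37 and 5.21, all above the 7 controls, which sit between 2.14 and 3.04.

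In the scores as deposited, the 3 compounds had close Cyp2b differences from the shared controls: 1.45 ± 0.289 for myclobutanil, 1.48 ± 0.340 for propiconazole and 1.49 ± 0.289 for triadimefon (SE, limma). None of the 3 passed alone over all probe sets (adjusted p = 0.734, 0.527 and 0.0501, in that order). Set against each other, myclobutanil and propiconazole differed by -0.03 (first minus second, 95% interval -0.77 to 0.70), myclobutanil and triadimefon by -0.04 (interval -0.68 to 0.60), and propiconazole and triadimefon by -0.01 (interval -0.75 to 0.73). The test of any difference among the 3 gave an adjusted p of 0.996 (limma F test). The values were farther apart after quantile normalisation, at 1.36 for myclobutanil, 1.72 for propiconazole and 1.83 for triadimefon (limma F test, unadjusted p = 0.0786). Without the arrays of high GAPDH 3′–5′ difference, which takes out myclobutanil replicates 1 and 5, they were 0.94, 1.51 and 1.52 in that order (limma F test, unadjusted p = 0.0835). With all arrays kept, the deposited scores within myclobutanil ran from 3.37 to 5.21, a wider range than the differences between compounds in those scores. The myclobutanil livers that stay without the arrays of high difference scored 3.46, 3.43 and 3.37. At the higher levels, which differ between compounds, the mean score was 4.23 ± 0.502 at 2000 ppm myclobutanil, 4.74 ± 0.462 at 2500 ppm propiconazole and 5.44 ± 0.612 at 1800 ppm triadimefon (SD, n = 4 each). Replicates 2 to 4 at 1800 ppm triadimefon have a GAPDH 3′–5′ difference above 0.9 and animal numbers above 3000. The part of either in that mean was not tested.

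Over 37 alternatives the Cyp2b difference lay between 1.25 and 1.65, and it passed in 24 of them. Without the arrays of high GAPDH 3′–5′ difference, 6 in the groups compared and 3 at 1800 ppm triadimefon, it was 1.36 (adjusted p = 0.0702). Among animals numbered below 3000 it was 1.37 (adjusted p = 0.211), and 1.25 when the series entered the fit (adjusted p = 0.223). Fitted beside the 3′–5′ difference it came to 1.65 (adjusted p = 0.00657), and after quantile normalisation 1.62 (adjusted p = 1.05e-06). Leaving out 1 array ended the call for control 2, 5 or 6 (adjusted p = 0.0574, 0.0737 and 0.114) and for triadimefon replicate 1 or 3 (adjusted p = 0.0569 and 0.0560). Without the highest liver, myclobutanil replicate 1, the difference was 1.37 and passed.

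**Figure D2:**
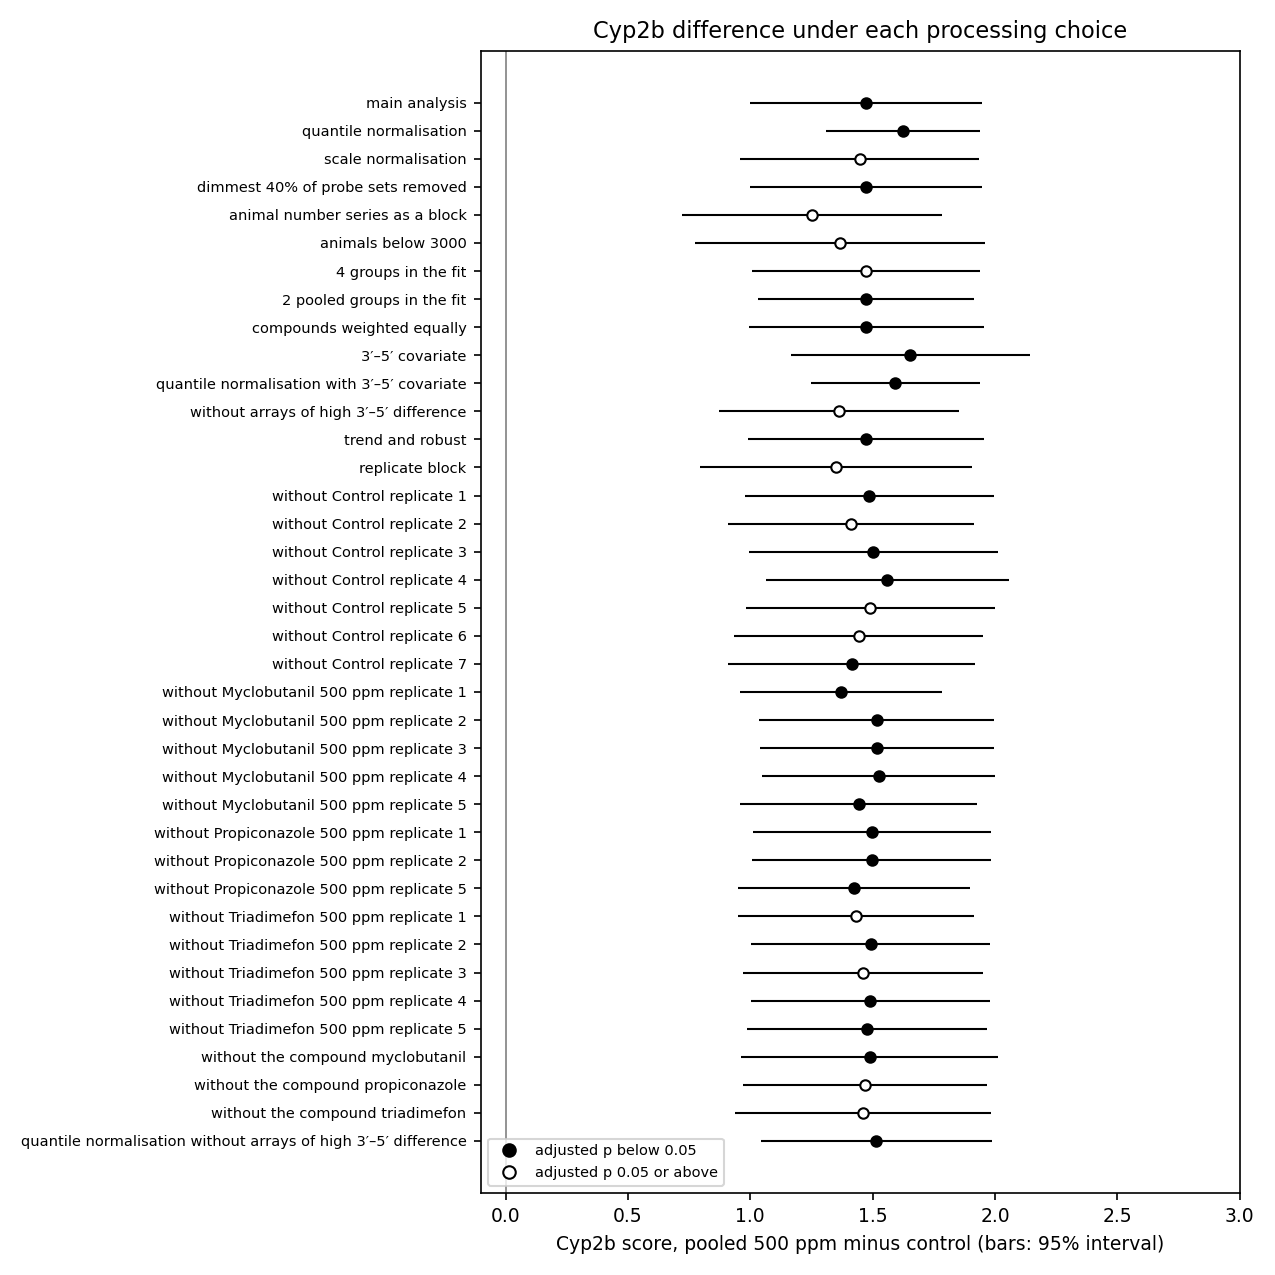
Pooled 500 ppm minus control difference of the Cyp2b score (horizontal axis, bars for the 95% interval) in the main analysis and 37 alternatives. Filled circles passed an adjusted p of 0.05. Every interval lies above 0, and the differences run from 1.25 to 1.65.

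Cyp2b3, a liver P450 of the same family that is not phenobarbital-inducible in rat, averaged 4.06 ± 0.715 at 500 ppm and 4.15 ± 0.351 in controls (SD), with a difference of -0.09 (95% interval -0.64 to 0.46, limma adjusted p = 0.876), and of -0.27 without the arrays of high GAPDH 3′–5′ difference. Its highest score, 6.33, was again that of myclobutanil replicate 1. Cyp3a23-3a1, the PXR-responsive P450, averaged 4.27 ± 0.800 at 500 ppm and 4.27 ± 0.482 in controls, a difference of 0.00 (95% interval -0.57 to 0.57, adjusted p = 0.998), and -0.03 without those arrays. Here too myclobutanil replicate 1 stood alone at 6.82, while the other 12 treated livers lay between 3.72 and 4.60, within the controls' 3.70 to 5.01. That array had the widest spread of scores (SD 1.02, against 0.705 to 0.872 for the other 19), the steepest spike-in slope and the largest 3′–5′ difference, 2.45.

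Among 16 CAR and PXR genes of phase I metabolism, Cyp2b alone passed (against 0.00322% of all probe sets). At an unadjusted p below 0.05, 4 were higher and 1 was lower, beside 1.62% higher and 14.9% lower of 14217 genes. Their median difference was 0.0859, beside -0.0303 over all genes, and it was 0.202 after quantile normalisation and 0.0383 without the arrays of high GAPDH 3′–5′ difference. By compound the median was 0.273 for myclobutanil, 0.0167 for propiconazole and -0.00981 for triadimefon. The 15 hepatocyte markers fell in the same order (0.125, -0.290 and -0.438), while 19 sterol synthesis genes did not (-0.0105, -0.0115 and 0.0648). The part of the wide spread of scores of myclobutanil replicate 1 in these compound medians was not tested. The same 7 controls serve every comparison. The lists and their members were chosen with earlier results of these data known.

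Aldh1a1, which oxidises retinal and other aldehydes, scored 3.16, 2.53, 2.14, 1.98 and 2.80 under myclobutanil, 1.30, 2.34 and 3.05 under propiconazole and 2.86, 2.46, 2.65, 2.07 and 2.24 under triadimefon. The controls scored 2.01, 1.83, 1.99, 2.09, 2.07, 2.00 and 0.888. In 10 of 13 treated livers the score was above every control, but propiconazole replicate 1 was below 6 of the 7 controls. The difference of 0.59 ± 0.191 did not pass (SE, limma adjusted p = 0.185), and it was 0.39 without the arrays of high GAPDH 3′–5′ difference.

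Ces2c, a carboxylesterase that splits ester drugs, ran from 1.22 to 2.17 with a median of 1.45 at 500 ppm, and from 0.936 to 1.40 with a median of 1.18 in controls. In 8 of 13 treated livers it was above all controls, and the difference was 0.34 ± 0.122 (SE, limma adjusted p = 0.210). Ephx1, microsomal epoxide hydrolase, ran from 2.97 to 4.07 (median 3.59) at 500 ppm and from 2.89 to 3.55 (median 3.13) in controls. Its difference was 0.46 ± 0.207 (adjusted p = 0.263), and 0.23 without the arrays of high GAPDH 3′–5′ difference. Neither group of scores was separate from the controls.

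Por, the reductase that feeds electrons to P450s, differed by 0.10 (95% interval -0.16 to 0.36, limma adjusted p = 0.678), and by 0.02 among animals numbered below 3000. A second Por probe set, dimmer, differed by 0.34 (adjusted p = 0.235). Akr1b7, an aldo-keto reductase that is a PXR and CAR target in mouse, differed by -0.17 ± 0.0599 (SE, adjusted p = 0.202). Its scores lay below 0 in all 13 treated livers, and control 2 alone of the controls was above 0, at 0.512. The difference was -0.07 without control 2 and -0.26 without the arrays of high GAPDH 3′–5′ difference.

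**Figure D3:**
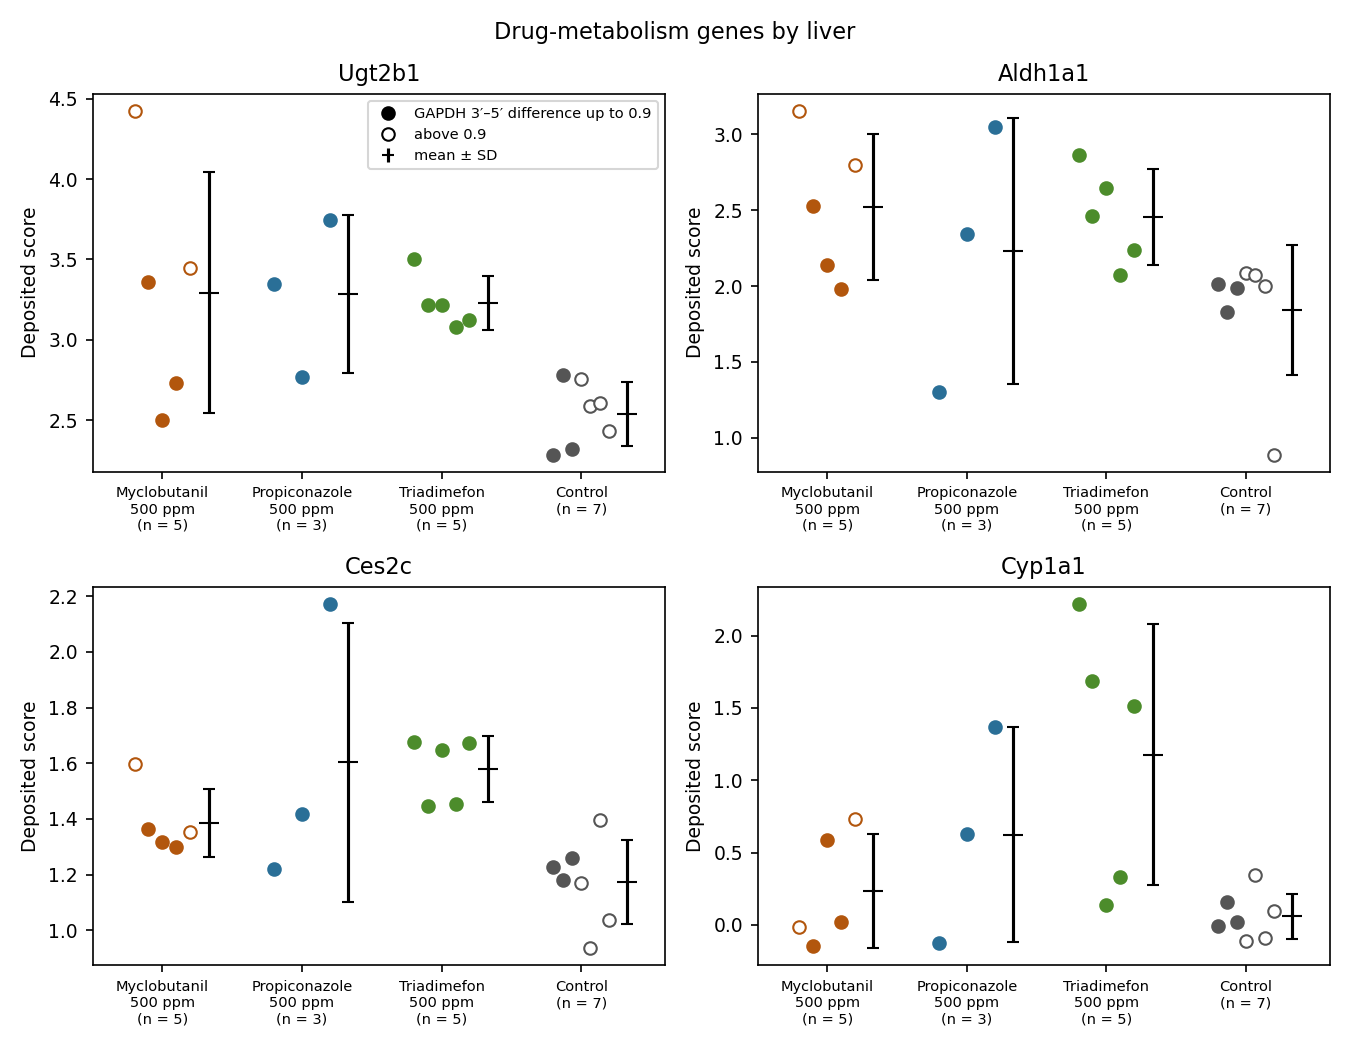
Deposited score (vertical axes) of Ugt2b1, Aldh1a1, Ces2c and Cyp1a1 in each liver, with open circles for arrays whose GAPDH 3′–5′ difference was above 0.9 and bars for mean ± SD. Ugt2b1 and Aldh1a1 are each above all controls in 10 of 13 treated livers, and Cyp1a1 spreads most under triadimefon, from 0.140 to 2.22.

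Ugt2b1, a phenobarbital-inducible glucuronosyltransferase, was the member of the 37 conjugation enzymes with the largest difference. It scored 4.43, 3.36, 2.50, 2.73 and 3.45 under myclobutanil, 3.35, 2.77 and 3.74 under propiconazole and 3.51, 3.22, 3.22, 3.08 and 3.12 under triadimefon. The controls scored 2.29, 2.78, 2.32, 2.75, 2.58, 2.61 and 2.43. Only myclobutanil replicates 3 and 4 and propiconazole replicate 2 fell within the control range. The difference was 0.73 ± 0.172 (SE, 95% interval 0.38 to 1.08) and did not pass (limma adjusted p = 0.128), with 0.76 for myclobutanil, 0.75 for propiconazole and 0.69 for triadimefon. After quantile normalisation it was 0.86 and passed (adjusted p = 0.000221). Over the 37 alternatives the Ugt2b1 difference lay between 0.63 and 0.92 and passed in 4, with a limma adjusted p of up to 0.813.

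Of the 37 conjugation enzymes none passed, and their median difference was -0.0192, beside -0.0303 over all genes. At an unadjusted p below 0.05, 4 were higher and 2 lower, beside 1.62% higher and 14.9% lower over all genes. Gstm3, a glutathione transferase, averaged 0.306 ± 0.202 at 500 ppm and 0.0277 ± 0.169 in controls, a difference of 0.28 (limma adjusted p = 0.155). By compound that was 0.13 for myclobutanil, 0.26 for propiconazole and 0.44 for triadimefon. Sult2a1, a sulfotransferase of steroids and bile acids, differed by -0.08 (adjusted p = 0.167) at scores below 0 in both groups.

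Among 20 transporters none passed, and the median difference was -0.0426. At an unadjusted p below 0.05, 1 was higher and 2 lower, beside 1.62% higher and 14.9% lower over all genes. The bile salt and conjugate exporter Abcc3 ran from -0.0669 to 0.273 at 500 ppm and from -0.0807 to -0.0156 in controls, with 8 of 13 treated livers above all controls (difference 0.07, limma adjusted p = 0.553). Slco1a1, an organic anion uptake carrier, differed by 0.20 (adjusted p = 0.238) and the efflux pump Abcg2 by -0.15 (adjusted p = 0.265). Abcc3 differed by 0.04 and Slco1a1 by 0.05 when the arrays of high GAPDH 3′–5′ difference were left out.

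None of 15 receptors and partners passed. Nr1i3 (CAR) averaged 0.892 ± 0.255 at 500 ppm and 0.586 ± 0.148 in controls, and was above all controls in 9 of 13 treated livers (difference 0.31, limma adjusted p = 0.167). Nr1i2 (PXR) averaged 1.24 ± 0.240 and 0.973 ± 0.174, in the same order (difference 0.27, adjusted p = 0.196). Their partner Rxra differed by 0.16 (adjusted p = 0.225). Without the arrays of high GAPDH 3′–5′ difference Nr1i2 differed by 0.15 and Rxra by 0.04. Of the 15, 4 were higher and 2 lower at an unadjusted p below 0.05, beside 1.62% higher and 14.9% lower over all genes. Their median was 0.0155, and -0.00319 without those arrays.

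Nr0b2, the repressor SHP that responds to bile acids, had differences from control of 0.55 for myclobutanil, 0.71 for propiconazole and 0.03 for triadimefon. The limma F test among compounds gave an adjusted p of 0.530 for it. Its control scores ran from 0.137 to 1.27. Only myclobutanil replicate 3, at 1.748, and propiconazole replicate 2, at 1.925, were above that range.

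Cyp1a1, the Ahr-controlled P450 that oxidises polycyclic aromatic compounds, was high in some treated livers of each compound and at the control level in others. It scored -0.0140, -0.149, 0.589, 0.0172 and 0.730 under myclobutanil, -0.123, 0.627 and 1.37 under propiconazole and 2.22, 1.69, 0.140, 0.328 and 1.52 under triadimefon. The controls ran from -0.112 to 0.342, with a median of 0.0195. In 7 of 13 treated livers the score was above every control, 3 of them under triadimefon. The pooled difference was 0.63 ± 0.270 (SE, limma adjusted p = 0.246).

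The compounds' Cyp1a1 differences from control were 0.18 for myclobutanil, 0.57 for propiconazole and 1.12 for triadimefon. Myclobutanil minus triadimefon was -0.94 (95% interval -1.69 to -0.20), with an adjusted p of 0.563 over all probe sets and 3 pairs of compounds (limma). Ahr itself differed by 0.24 (adjusted p = 0.186), but its second probe set by -0.03. Cyp1b1, another Ahr target, differed by 0.05 (adjusted p = 0.288). Leaving out the arrays of high GAPDH 3′–5′ difference gave 0.16 for Ahr and 0.02 for Cyp1b1. None of 8 genes of the Ahr list passed, and their median was 0.0398. Of these 8, 2 were higher and 0 lower at an unadjusted p below 0.05, beside 1.62% and 14.9% over all genes.

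**Figure D4:**
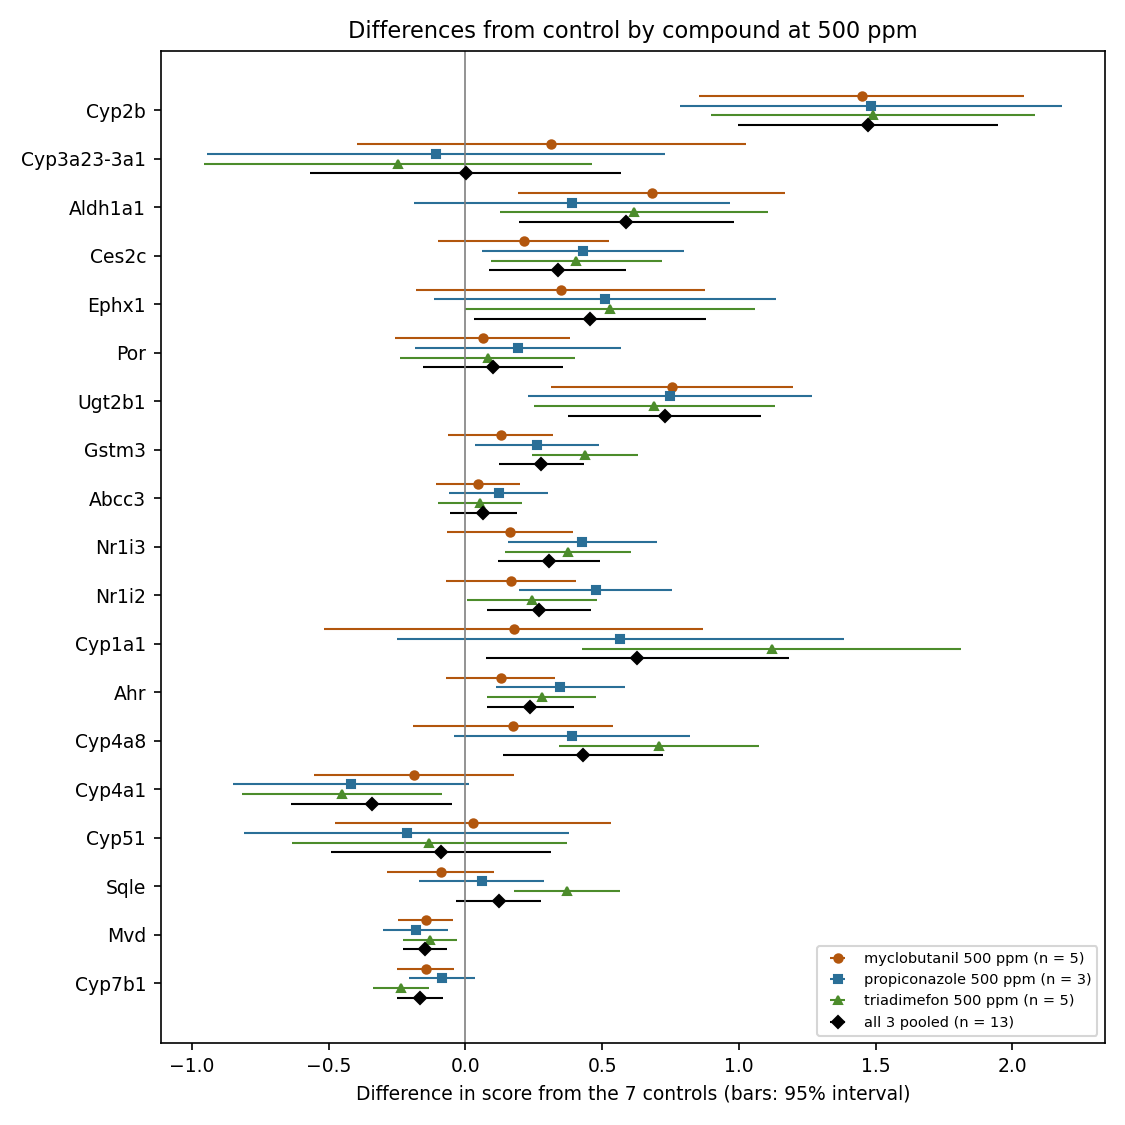
Difference in score from the 7 controls (horizontal axis, bars for the 95% interval, not adjusted over probe sets) for drug, lipid and sterol genes, by compound and pooled. Cyp2b is the farthest from 0 and its 3 compound values, 1.45, 1.48 and 1.49, nearly coincide, while Cyp1a1 runs from 0.18 to 1.12.

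In sterol synthesis, the pathway of Cyp51, none of 19 genes passed and 1 was lower at an unadjusted p below 0.05, beside 14.9% lower over all genes. Their median difference was 0.00499, beside -0.0303 over all genes (0.0768 after quantile normalisation). Cyp51 averaged 3.03 ± 0.540 at 500 ppm and 3.12 ± 0.385 in controls, a difference of -0.09 (95% interval -0.49 to 0.31, limma adjusted p = 0.826), and its second probe set differed by 0.04. Mvd, which makes isopentenyl diphosphate, differed by -0.15 (adjusted p = 0.155) and by -0.15, -0.18 and -0.13 under myclobutanil, propiconazole and triadimefon. Without the arrays of high GAPDH 3′–5′ difference Cyp51 differed by -0.0036 and Mvd by -0.06.

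Squalene epoxidase, Sqle, had its 5 highest scores of the 20 livers under triadimefon. It scored 0.786, 0.790, 0.767, 0.905 and 0.729 under myclobutanil and 0.955, 0.903 and 0.977 under propiconazole. Under triadimefon it scored 1.24, 1.12, 1.36, 1.29 and 1.27, all above the controls' 0.662 to 1.07. The limma F test among compounds did not pass (adjusted p = 0.530), and myclobutanil minus triadimefon was -0.46 (95% interval -0.67 to -0.25). Acat2, which joins 2 acetyl-CoA molecules, had differences of 0.01 for myclobutanil, 0.02 for propiconazole and 0.26 for triadimefon. Pooled it differed by 0.11, and by 0.25 without the arrays of high GAPDH 3′–5′ difference.

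Across all probe sets no difference between compounds at 500 ppm passed. The F test called 0 of 31042 (limma, smallest adjusted p = 0.530), with 2855 (9.20%) at an unadjusted p below 0.05, and none of the 3 pairs of compounds had a called probe set. At that unadjusted level myclobutanil minus triadimefon had 5934, myclobutanil minus propiconazole 1332 and propiconazole minus triadimefon 772. Neu3, a ganglioside sialidase, had the smallest F test p among named genes, 0.000178, with differences from control of -0.0047 for myclobutanil, -0.11 for propiconazole and -0.15 for triadimefon (pooled -0.08, and -0.05 without the arrays of high GAPDH 3′–5′ difference). Taken alone against the same controls, myclobutanil and propiconazole called 0 probe sets each and triadimefon 3 (0.00966%). These were Elapor1 (-0.46), an endosomal and lysosomal regulator, Tram1l1 (-0.19), of the translocation-associated membrane protein family, and 1 without a gene symbol. Tram1l1 scored below 0 under triadimefon and in controls. At an unadjusted p below 0.05, the counts of myclobutanil, propiconazole and triadimefon were 1281, 2866 and 9108. Their mean 3′–5′ differences were 1.21, 0.694 and 0.518 in that order, and that of the controls 1.30. The F test count at that unadjusted level was 953 with the 3′–5′ covariate, 1283 without myclobutanil replicate 1 and 5010 without myclobutanil replicate 4. The part of the 3′–5′ difference in these counts was not tested. In myclobutanil Elapor1 differed by -0.14 and in propiconazole by -0.24. The sign of the difference was the same in all 3 compounds for 54.2% of probe sets.

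Lower scores outnumbered higher ones over the whole array. The pooled difference was above 0 for 30.1% of probe sets. At an unadjusted p below 0.05, 816 (2.63%) were higher and 4626 (14.9%) lower, though none of the lower ones passed. Together these 5442 made 17.5% of probe sets, against 7.43% without the arrays of high GAPDH 3′–5′ difference, 5.60% with that difference fitted beside the groups and 4.86% among animals numbered below 3000. The count of probe sets past the threshold rested on single arrays: it was 1419 without myclobutanil replicate 1 (1354 of them lower), 971 without control 3, 116 without myclobutanil replicate 5, 113 without control 1 and 5 without control 7. It was 0 without control 2, 5 or 6 or triadimefon replicate 1 or 3, and 21 without all of myclobutanil.

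Next after Cyp2b, 12 probe sets shared an adjusted p of 0.0760, all of them lower. Of these, 7 have a gene symbol. The largest fall of the 12, -0.98, was at a probe set without one. Tle1, a transcriptional corepressor, ran from 0.289 to 1.11 with a median of 0.660 at 500 ppm and from 0.885 to 1.30 with a median of 1.10 in controls. It was below every control in 11 of 13 treated livers, and the difference was -0.45 ± 0.0824 (SE). Ccdc126 was likewise below every control in 11 of 13 livers and differed by -0.35 ± 0.0654. The histone methyltransferase Smyd3 differed by -0.16, the unconventional myosin Myo10 by -0.15, Armc9 by -0.14, Ldlrad4 by -0.11 and Tram1l1 by -0.13. Tram1l1 scored below 0 in every liver, from -0.545 to -0.299 at 500 ppm and from -0.410 to -0.194 in controls. Ldlrad4 ran from -0.251 to -0.102 at 500 ppm and from -0.169 to 0.0228 in controls. For Myo10 and Armc9 the other probe sets of the gene were nearer 0. Hivep1, a zinc finger transcription factor, followed at -0.15 (limma adjusted p = 0.0931). Smyd3 differed by -0.09 and Hivep1 by -0.08 when the arrays of high GAPDH 3′–5′ difference were left out.

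The genes of smallest p with a higher score were Slc16a6, a monocarboxylate carrier (0.15, limma adjusted p = 0.102), Ccdc32 (0.09, adjusted p = 0.123), Mplkip (0.14), Birc7, an inhibitor of apoptosis (0.11), Pura, a nucleic acid binding protein (0.17), Robo1, an axon guidance receptor (0.09), and Nceh1, which hydrolyses cholesteryl esters (0.22, adjusted p = 0.142). Slc16a6 was above all controls in 12 of 13 treated livers, from -0.00810 to 0.220 at 500 ppm against -0.0840 to 0.0337 in controls. The same count was 10 for Pura and Nceh1, 9 for Ccdc32, 3 for Mplkip and Birc7 and 0 for Robo1. Ccdc32 and Robo1 scored near 0 or below it. Ccdc32 ran from -0.134 to 0.0115 at 500 ppm and from -0.208 to -0.0884 in controls. Robo1 ran from 0.0043 to 0.113 at 500 ppm and from -0.0976 to 0.113 in controls. Other Mplkip probe sets differed by -0.06, 0.10 and -0.04. None of these differences is as large as that of Ugt2b1, which belongs with them by its p. Without the arrays of high GAPDH 3′–5′ difference Mplkip differed by 0.06 and Pura by 0.09.

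S100a8, a calcium-binding protein of neutrophils, was the 1 probe set (0.00322%) with all 13 treated livers below all 7 controls. With Cyp2b, 2 probe sets (0.00644%) did not overlap between the groups. S100a8 ran from -0.322 to -0.223 at 500 ppm and from -0.217 to -0.149 in controls, a gap of 0.00633. The difference was -0.08 ± 0.0267 (SE) and did not pass (limma adjusted p = 0.197). Among its list of 15 lymphocyte and neutrophil markers none passed, 1 was higher and 2 lower at an unadjusted p below 0.05 (1.62% and 14.9% over all genes), and the mean score of the list ran from -0.182 to -0.0607 at 500 ppm and from -0.146 to -0.0346 in controls.

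Lipid genes divided without a call. Cyp4a8 and Cyp4a1, omega-hydroxylases of fatty acids, differed in opposite directions: 0.43 (limma adjusted p = 0.188) and -0.34 (adjusted p = 0.238). Cyp4a8 averaged 1.14 ± 0.335 at 500 ppm and 0.71 ± 0.165 in controls, and Cyp4a1 2.46 ± 0.326 and 2.80 ± 0.190. Angptl4, a PPAR-responsive inhibitor of lipoprotein lipase, ran from 1.70 to 2.86 at 500 ppm and from 2.04 to 3.31 in controls (difference -0.61, adjusted p = 0.157). The fatty acid carrier Cd36 differed by 0.31 (adjusted p = 0.157; 0.13 without the arrays of high GAPDH 3′–5′ difference) and the binding protein Fabp5 by -0.43 (adjusted p = 0.159). Of 35 PPARα and fatty acid oxidation genes none passed, 1 was higher and 3 lower at an unadjusted p below 0.05 (1.62% and 14.9% over all genes), and the median of -0.0500 became 0.0225 after quantile normalisation.

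Other metabolic genes were mostly lower, as the array was. Pc, pyruvate carboxylase, which starts gluconeogenesis, ran from 1.44 to 1.82 at 500 ppm and from 1.69 to 2.01 in controls, below every control in 12 of 13 treated livers (difference -0.27, limma adjusted p = 0.167). Pck2 differed by -0.15 (adjusted p = 0.177), but its second probe set by 0.00. Hal, which starts histidine breakdown, differed by -0.17 for myclobutanil, -0.32 for propiconazole and -0.78 for triadimefon. The bile acid and oxysterol hydroxylase Cyp7b1 differed by -0.17 (adjusted p = 0.128). Hmox1, heme oxygenase, averaged 0.701 ± 0.189 and 0.930 ± 0.167, and was below all controls in 10 of 13 treated livers (difference -0.23, adjusted p = 0.186). Without the arrays of high GAPDH 3′–5′ difference Pck2 differed by -0.06, Cyp7b1 by -0.07 and Hmox1 by -0.15.

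Of 20 genes of the growth hormone and IGF axis none passed, 7 had a difference above 0 and 4 were lower at an unadjusted p below 0.05, beside 14.9% lower over all genes. Igfals, which carries IGF in the blood, differed by -0.39 (limma adjusted p = 0.192), the prolactin receptor Prlr by -0.44 (adjusted p = 0.196) and the liver transcription factor Onecut1 by -0.70 (adjusted p = 0.255), though by -0.25 at its second probe set. The clock-linked repressor Nfil3 ran from 0.890 to 2.37 at 500 ppm and from 1.34 to 2.03 in controls, below all controls in 10 of 13 treated livers (difference -0.55, adjusted p = 0.157). Among 16 immediate early genes none passed, while 5 were lower at an unadjusted p below 0.05, beside 14.9% of all genes. They include Ier2 (-0.51), Dusp1 (-0.47, but 0.09 at its second probe set) and Myc (-0.34). Leaving out the arrays of high GAPDH 3′–5′ difference gave -0.25 for Ier2 and -0.70 for Prlr.

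For complement and coagulation genes, hepatocyte markers and unfolded protein response genes, the medians changed with the processing and the arrays kept. All 19 complement and coagulation genes had a pooled difference below 0, beside 27.4% above 0 over all genes. Their median was -0.227 as deposited, -0.0884 after quantile normalisation, 0.0268 with the 3′–5′ covariate and -0.219 without the arrays of high GAPDH 3′–5′ difference. By compound the median was -0.00124 for myclobutanil, -0.302 for propiconazole and -0.450 for triadimefon, and their 3′–5′ differences fall in that order too. The 15 hepatocyte markers gave -0.170, -0.0186, 0.157 and -0.279 under the same 4 settings. For 22 genes of the unfolded protein response the values were -0.185, -0.0588, -0.0711 and -0.216. None of these genes passed. At an unadjusted p below 0.05, 1 of the complement and coagulation genes, 0 hepatocyte markers and 5 unfolded protein response genes were lower, beside 14.9% of all genes.

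**Figure D5:**
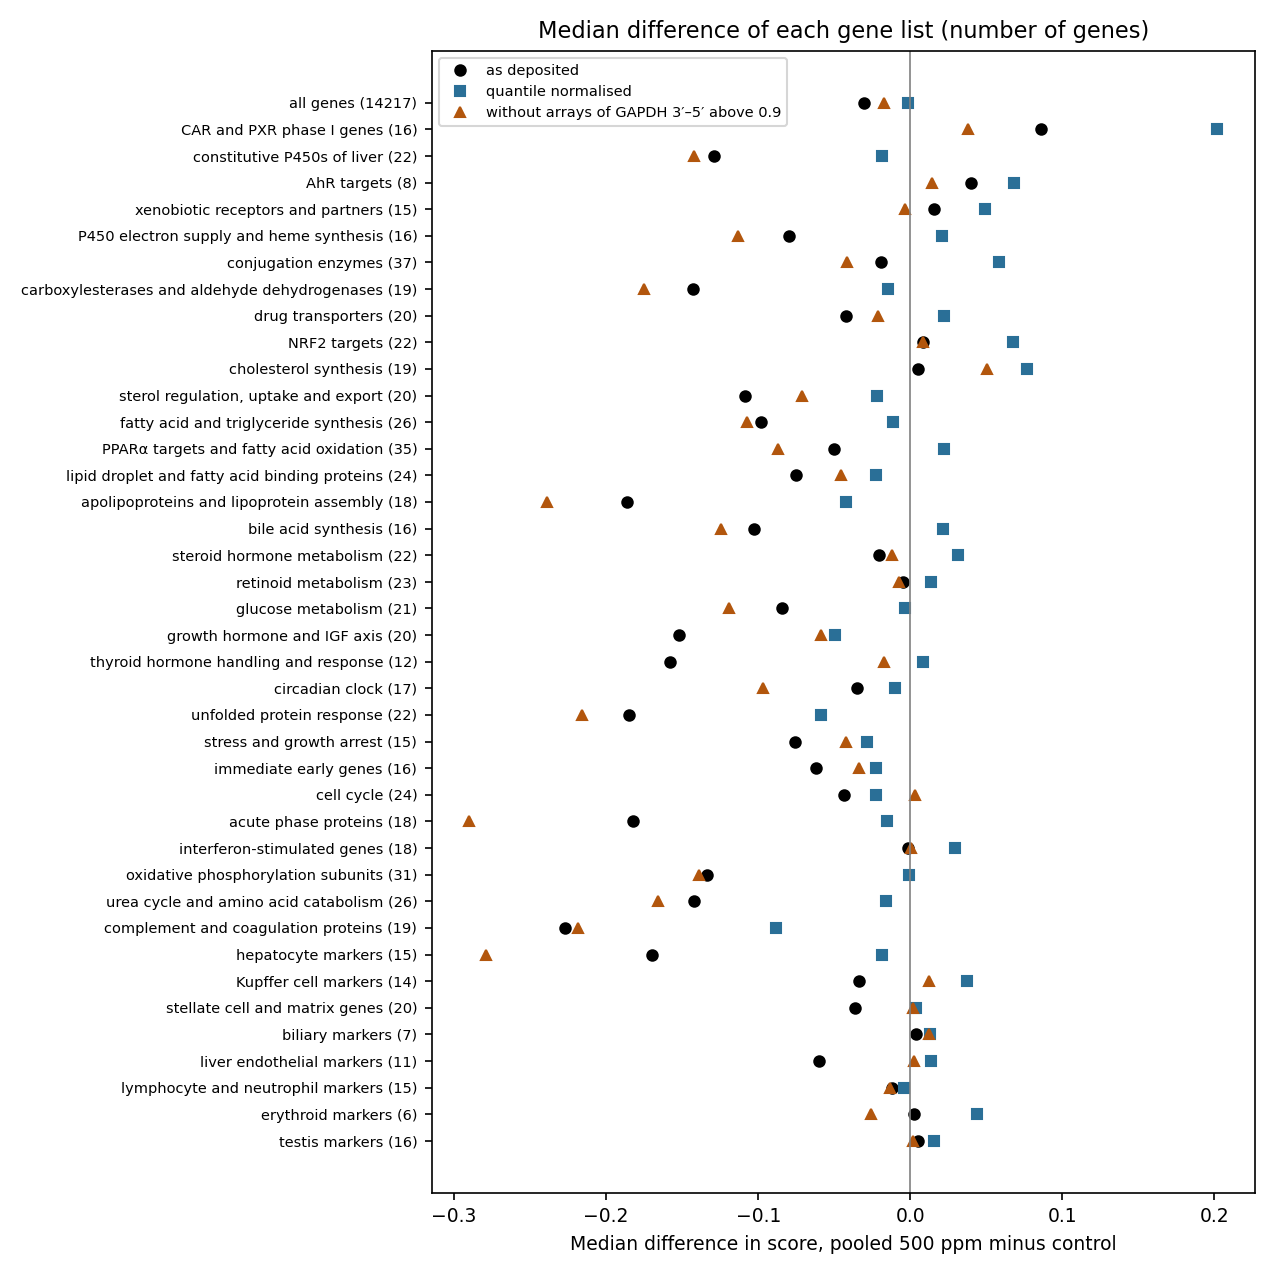
Median difference in score, pooled 500 ppm minus control (horizontal axis), for each gene list and for all 14217 genes. It is shown in the scores as deposited, after quantile normalisation, and without the arrays of GAPDH 3′–5′ difference above 0.9. Of those arrays, 6 are in the groups compared and 3 at 1800 ppm triadimefon. Most lists that lie well below 0 as deposited come close to 0 after quantile normalisation, while CAR and PXR phase I genes move to 0.202. Without the arrays of high difference, CAR and PXR phase I genes are at 0.0383. There hepatocyte markers move from -0.170 to -0.279, and the growth hormone and IGF axis from -0.152 to -0.0589.

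Markers of other cells were near the level of the array as a whole. The median difference was -0.0335 for 14 Kupffer cell genes, -0.0362 for 20 stellate cell and matrix genes, 0.00410 for 7 biliary genes, -0.0597 for 11 endothelial genes, 0.00235 for 6 erythroid genes and 0.00504 for 16 testis genes, and none of their members passed. At an unadjusted p below 0.05, 2 of these genes were higher and 3 lower, beside 1.62% and 14.9% of all genes. Prm1, the sperm protamine, was the testis gene with the highest scores. It ran from 0.53 to 2.68 at 500 ppm and from -0.271 to 1.72 in controls (difference 0.49, limma adjusted p = 0.499), and its difference was 0.04 without the arrays of high GAPDH 3′–5′ difference.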

How the data were processed

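RNA of single livers went onto Affymetrix Rat Genome 230 2.0 arrays, as the labels' protocols state. The authors deposited 1 score per probe set and array. For that score no source used here gives the software, normalisation, scale or centring. The test had been planned for log2 values and was run on the scores unchanged. 3 listed arrays held no values.

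All 7 groups of the 32 arrays entered 1 linear model (limma 3.58.1, R 4.3.3, eBayes at its defaults, 25 residual and 1.99 prior degrees of freedom). The pooled contrast weighted the compounds by their arrays (5, 3 and 5). Tests were two-sided and adjusted by Benjamini-Hochberg over 31042 probe sets (threshold 0.05), or over these and 3 pairs for differences between compounds. Replicates are animals, so p-values measure the spread between them. The fit was also run on simulated scores with independent noise. Those hold no effect of single arrays, so that run cannot show how such effects bear on the calls here.

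Of the probe sets, 20826 had 1 gene symbol, 436 several and 9780 none, from GEO's platform annotation. 20758 of the first kind matched the GRCr8 gene table. A gene is read at its probe set of highest mean score, and 14217 genes were represented. Promoters are RefSeq's, aligned base by base.

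Genes named were the 8 of smallest p in each direction where fewer passed, up to 3 per list of smallest p, the leading genes of the F test, those whose arrays do not overlap, and Cyp2b, Cyp51, Cyp3a23-3a1, Cyp1a1, Aldh1a1, Ces2c, Abcc3, Ugt2b1 and Por. Cyp2b3, Cyp2c6v1, Natd1, Rgs3, Elapor1, Dock11 and Prm1 were named after their values were seen. The members, lists and named genes were chosen with earlier results of these data known. The alternatives were other normalisations, filters, samples, blocks, fits and a 3′–5′ covariate.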

Additional observations from a re-analysis of the deposited data

Results flagged for a closer look

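In 13 of 195 sets of 4 to 10 scores (6.67%; 1 gene in 1 group), 1 liver stood apart from the others by Dixon's test, where chance alone gives about 5%. Myclobutanil 500 ppm replicate 1 accounts for 5 of the 13: Cyp3a23-3a1 at 6.82 (next liver of the group 4.60), Cyp2b3 at 6.33 (next 4.25), Rgs3 at 1.68 (next 0.980), Ces2c at 1.60 (next 1.36) and Acat2 at 0.839 (next 0.675). It is the array with the widest spread of scores, and its part in these values was not tested.

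At 500 ppm, triadimefon replicate 3 was low for Angptl4 at 1.84 (next 2.19), triadimefon replicate 4 was low for Cyp4a1 at 2.06 (next 2.39) and myclobutanil replicate 4 stood apart for Abcc3 at -0.0554 (next -0.00504). Among controls, replicate 3 was high for Birc7 at 0.182 (next 0.0496) and Robo1 at 0.113 (next -0.0359), replicate 7 was low for Aldh1a1 at 0.888 (next 1.83) and Rgs3 at 0.849 (next 1.55), and replicate 2 was high for Akr1b7 at 0.512 (next -0.0690).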

How the results depend on the processing

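The count of 1 probe set past the threshold, which moved the same way in all 3 compounds, became 4 after quantile normalisation (3 higher: Cyp2b, Ugt2b1 and Cyp2c6v1). It became 3 with quantile normalisation and the 3′–5′ covariate (the same 3). Without arrays of high 3′–5′ difference it became 4, and Cyp2b was not among them. There Dock11 was higher (0.65, limma adjusted p = 0.00621, against 0.27 on all arrays), and Natd1, Rgs3 and a probe set without a symbol were lower. The count became 7 with trend and robust settings and 21 without myclobutanil. It became 0 with scale normalisation, among animals below 3000, with their number series as a block, with 4 groups in the fit, without propiconazole and without triadimefon. An alternative chosen after seeing the data, quantile normalisation without arrays of high 3′–5′ difference, gave 6. Leaving out 1 array gave 0 to 1419. In these 37 alternatives the Cyp2b difference stayed above 0. It missed the threshold at 1.45 with scale normalisation (adjusted p = 0.0541), 1.37 below 3000 (0.211), 1.25 with the block of number series (0.223), 1.47 with 4 groups in the fit (0.102), 1.36 without arrays of high 3′–5′ difference (0.0702), 1.47 without propiconazole (0.0580) and 1.46 without triadimefon (0.136). Leaving out 1 array gave 1.37 to 1.56. Where the groups share replicate numbers, the replicate block gave 0 probe sets past the threshold and a Cyp2b difference of 1.35 (adjusted p = 0.149). The numbers were not taken as pairs: same-numbered arrays correlated over 0.1 in 9 of 24 pairs (-0.666 to 0.596), and 4 of 20 arrays were closest to their own number. The cause of these changes was not tested.

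Signs that turned all belong to genes short of the threshold in the main analysis. Cyp51 was 0.0519 after quantile normalisation, 0.231 with the covariate, 0.149 with both and 0.147 in the added alternative, and ran from -0.228 to 0.0143 as 1 array was left out. Cyp3a23-3a1 was -0.0415 with scale normalisation, -0.112 with the block of number series, -0.0138 below 3000, -0.0128 with compounds weighted equally, -0.0343 without arrays of high 3′–5′ difference, -0.0200 with the replicate block and -0.194 without myclobutanil, and ran from -0.211 to 0.125 as 1 array was left out. Cyp2c6v1 was -0.0728 with the block of number series, -0.0240 below 3000, -0.0795 without arrays of high 3′–5′ difference and -0.0479 without myclobutanil, and ran from -0.0681 to 0.251 as 1 array was left out. Por was -0.0258 with the block of number series and Sqle -0.0343 without triadimefon. Cyp2b3 was 0.0308 after quantile normalisation, 0.184 with the covariate and 0.0611 without triadimefon.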

Other observations

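Rgs3, which shortens G-protein signalling, differed by -0.66 on all arrays (adjusted p = 0.128) and by -0.80 without the arrays of high GAPDH 3′–5′ difference, which leaves controls 1 to 3 as the only controls (limma adjusted p = 0.0498), and its other 2 probe sets by -0.02 and -0.00044. Natd1 differed by -0.13 (adjusted p = 0.188) and by -0.19 without those arrays (adjusted p = 0.00621), and was below all controls in 12 of 13 treated livers. Cyp2c6v1, a P450 inducible by phenobarbital, averaged 4.56 ± 0.764 at 500 ppm and 4.43 ± 0.464 in controls (difference 0.13, adjusted p = 0.811), and its difference after quantile normalisation was 0.29 (adjusted p = 0.00220).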
